A study of Mus musculus with 8 samples.

Results

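The genes of glucose uptake, glycolysis, lactate export, the pentose phosphate pathway, glycogen use and the response to low oxygen were followed in sorted myeloid cells of sanroque mice. They were taken as a list of 38 gene symbols, matched to the symbol column of the deposited count table. The match gave 39 of the 54188 rows, because Aldoa stands on a pair of rows with different Ensembl identifiers. All 39 rows passed the filter on low counts, which kept 17650 rows.

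RNA was sequenced from CD11b+Gr-1hi and CD11b+Gr-1lo cells that had been sorted from spleen (SP) and from bone marrow (BM). The labels call the first G-MDSC and the second M-MDSC, the granulocytic and monocytic kinds of myeloid-derived suppressor cell. Each of the 4 groups has 2 libraries. Libraries 5 and 6 are SP Gr-1hi, 7 and 8 are SP Gr-1lo, 9 and 10 are BM Gr-1hi, and 11 and 12 are BM Gr-1lo. The mice of all 4 groups were 20-week-old sanroque mice on C57BL/6, female by the labels and homozygous for the san allele of Roquin (Roquin san/san), an RNA-binding protein that represses target mRNAs. They develop a lupus-like disease, and because every cell of these mice carries the allele and no wild-type library was analysed here, SP and BM were compared within the mutant only. Libraries were made from poly(A) RNA with a stranded kit and sequenced as paired reads. The study calls the BM cells autologous, so groups may share mice, but no label ties a library to a mouse. The fit treated the libraries as independent, and p-values measure the spread between these libraries.

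Glycolysis splits glucose into pyruvate, with a small yield of ATP and without oxygen, and the pentose phosphate pathway branches off after the first step to make NADPH and ribose. Neutrophils have few mitochondria and rely on glycolysis, on stored glycogen and on NADPH for the oxidative burst, while monocytes and their dividing precursors also respire. Under low oxygen the factor encoded by Hif1a is no longer marked for destruction by the Egln prolyl hydroxylases, and it binds DNA with the core letters ACGTG or GCGTG to raise many genes of glycolysis.

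The stretches upstream of the start site that hold these letters are shown for 6 members, because these genes differ in how they varied between SP and BM. Slc2a1, Pdk1, Bnip3 and Slc16a1 passed the test as higher in SP than in BM Gr-1hi cells, whereas Ldha and Pgk1 passed it as lower. The sequences are from RefSeq on GRCm38.p6, are written 5′ to 3′ on the strand of the gene, and end before the start site. Capitals mark ACGTG and GCGTG and their reverse complements CACGT and CACGC, merged where they overlap.
Slc2a1, chr4:119108672-119108725, plus strand: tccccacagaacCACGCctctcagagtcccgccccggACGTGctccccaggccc
Pdk1, chr2:71873134-71873162, plus strand: ccgcctacatggGCGTGtctttaaccagg
Bnip3, chr7:138909525-138909635, minus strand: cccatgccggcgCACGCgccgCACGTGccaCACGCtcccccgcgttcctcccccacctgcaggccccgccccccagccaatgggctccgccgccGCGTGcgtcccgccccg
Slc16a1, chr3:104638452-104638546, plus strand: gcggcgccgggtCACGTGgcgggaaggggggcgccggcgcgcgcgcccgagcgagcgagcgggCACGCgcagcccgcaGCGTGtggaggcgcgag
Ldha, chr7:46845647-46845786, plus strand: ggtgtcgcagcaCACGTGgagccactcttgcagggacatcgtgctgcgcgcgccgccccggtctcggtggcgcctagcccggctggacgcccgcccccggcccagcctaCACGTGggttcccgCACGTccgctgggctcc
Pgk1, chrX:106186938-106186985, plus strand: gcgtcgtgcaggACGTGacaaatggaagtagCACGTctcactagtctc
Both kinds of gene hold the letters, and the windows of Ldha and Pgk1 hold ACGTG more than once. Among the 250 bases before the start sites of the members, ACGTG or its complement was found in 22 of 54 windows (40.7%), against 16.6% of 32851 windows of all genes. GCGTG or its complement was in 30 of 54 windows (55.6%), against 28.2% of all windows. Either was in 42 windows (77.8%), against 38.6%, and 34 of the 37 member genes with a RefSeq window had at least 1. Both words hold the pair CG, and the windows of members and of all genes were not matched for content of G and C. What the excess reflects was not tested. Windows of alternative start sites of a gene can overlap, so the 54 windows are not independent. A match is a stretch of letters and not a measured binding site. A window for Slc2a3 was not analysed here.

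The libraries held 33453580 to 68316154 counts, and 3 counts, the limit that a count of 0 allows, correspond to 0.0348 to 0.124 CPM, the counts scaled to library size. This limit covers counting error only. The members took 1.72 and 1.78% of all counts in SP Gr-1hi, 2.33 and 2.36% in BM Gr-1hi, 1.20 and 1.12% in SP Gr-1lo, and 1.22 and 1.23% in BM Gr-1lo. The subsets matched their labels by Ly6g, which encodes the granulocyte antigen that the Gr-1 antibody binds, at 330.0 to 801 CPM in the 4 Gr-1hi libraries and 3.07 to 8.23 CPM in the 4 Gr-1lo libraries. The sexes did not match. The labels give female mice, but Ddx3y of the Y chromosome was at 33.7 to 82.6 CPM in every library except library 5, where it had 0 counts. Xist, which silences an X chromosome in females, had 12032 counts in library 5, 9898 in library 7 and 0 to 5 in the others, so library 7 held both transcripts. Counts of the comparisons are therefore also given without libraries 5 and 7, an alternative chosen after the data had been seen.

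Counts were scaled by the TMM method of edgeR, and all CPM below are on that scale. Adjusted p-values are from edgeR's quasi-likelihood test on the 8 libraries with Benjamini-Hochberg adjustment over the 17650 rows, and a member is said to rise, fall or pass at an adjusted p of at most 0.05. FC stands for fold change, and SE for the standard error of its log2.

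In Gr-1hi cells most of the pathway stood lower in SP than in BM. Of the 39 rows, 22 fell and 5 rose in SP, where 13.9% of all rows tested fell and 20.1% rose. The median log2 FC of the members was -0.44, against 0.03 for all rows tested. All 4 enzymes that phosphorylate glucose, all 4 pentose phosphate enzymes, both glycogen enzymes and 5 of 6 rows of lower glycolysis fell, whereas the transporter genes Slc2a1 and Slc16a1, the kinase gene Pdk1, the enolase gene Eno3 and Bnip3 rose. The falls were moderate: Adpgk alone among the 22 passed with an FC of at least 2, a rule that 1.48% of all rows met as lower. In bulk RNA, fewer cells of a type and less RNA of a gene per cell cannot be told apart.

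In Gr-1lo cells few members passed between the organs, and few of all rows tested did. Slc2a3 rose and Slc16a1 fell in SP, the other 37 rows did not pass, and 4.88% of all rows rose and 0.697% fell. Before adjustment, 7 rows had a p of at most 0.05. No row reached an FC of 2 together with the adjusted p, against 4.06% of all rows in either direction. The median log2 FC was -0.07, against -0.01 for all rows. The difference between the organ effects of the subsets was tested as an interaction, the change from Gr-1lo to Gr-1hi in SP minus that in BM. It passed for 15 of the 39 rows, with 13 lower and 2 higher, where 6.08% of all rows were lower and 10.3% higher, 16.4% in all.

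**Figure D1:**
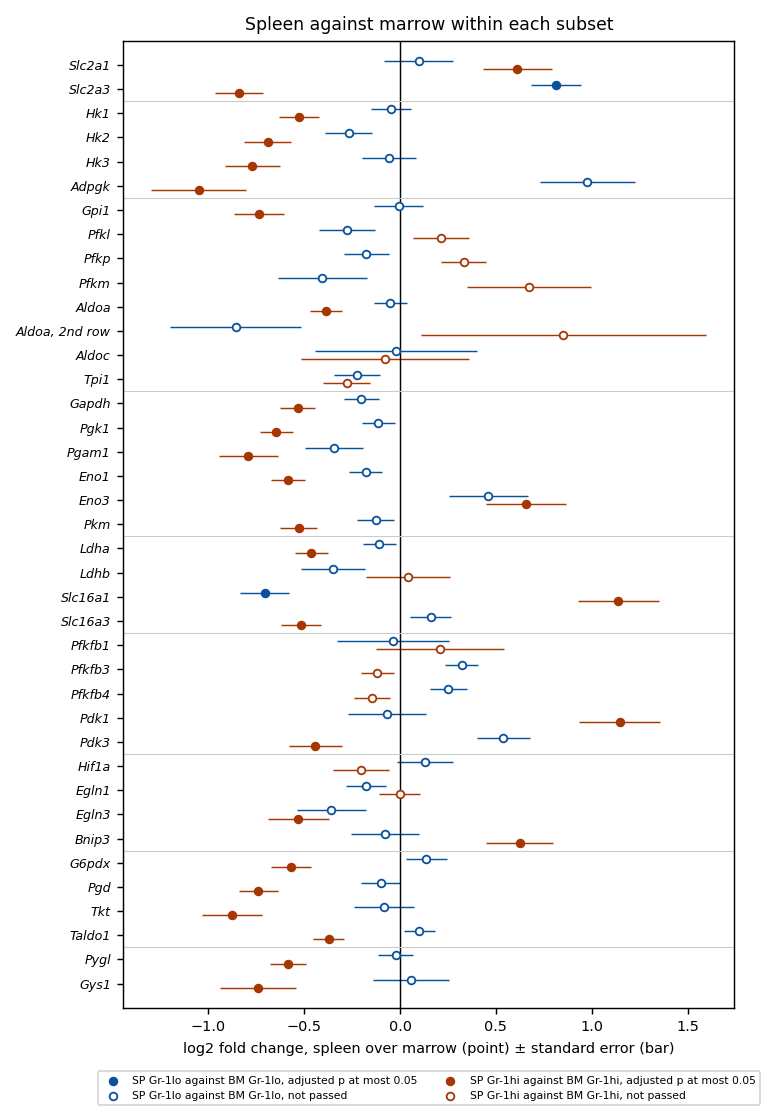
Log2 fold change of each of the 39 rows between SP and BM (x axis; points, with bars for the standard error) in Gr-1lo cells (blue) and Gr-1hi cells (brown), with filled points where the adjusted p was at most 0.05. In Gr-1hi cells 22 filled points lie left of 0 and 5 right of it, while in Gr-1lo cells only those of Slc2a3 and Slc16a1 are filled.

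These counts depended on single libraries to different degrees. The number of rows that fell in SP Gr-1hi cells was 20 to 24 when each of the 8 libraries was left out in turn, and 19 without libraries 5 and 7. The number that rose was 2 without library 5, 9 or 10, 7 without library 6, and 2 without libraries 5 and 7. The interaction count was 4 without library 7, 8 or 11, 4 without libraries 5 and 7 together, 6 without library 12, 8 without library 9 and 26 without library 6. Beside the main split, in which 59.1% of all calls between SP and BM Gr-1hi cells were higher, RLE scaling gave 48.2%, with 22 members lower and 3 higher. An exact test on quantile-normalised TPM gave 17 members lower and 0 higher. With an FC of at least 2, 3 members passed in either direction, but 8 without library 6 and 1 without libraries 5 and 7.

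Other cell types moved with the comparison of SP with BM. In SP Gr-1hi libraries the 10 B cell markers summed to 537 and 362 CPM, against 16.6 to 20.2 CPM in BM Gr-1hi, and all 10 rose. The 10 splenic macrophage markers summed to 1151 and 968 CPM, against 684 and 613 CPM, and all 10 rose. Slc40a1 made up much of these sums, at 825 and 676 against 498 and 462 CPM. It was at 20.2 to 31.6 CPM in Gr-1lo libraries, so its level also went with the subset. C1qa, Cd5l and Spic were at 8.74 to 21.1 CPM in SP Gr-1hi and 1.28 to 7.78 CPM in BM Gr-1hi. Of 7 erythroid markers tested, 6 rose, and 9 measured markers summed to 218 and 735 CPM, against 35.9 and 44.1 CPM. Of the 11 T and NK cell markers 9 rose, with sums of 113 and 70.4 CPM against 8.59 and 12.6 CPM. Of the 8 monocyte genes 3 rose, with sums of 532 and 644 CPM against 265 and 326 CPM. Granule genes went the other way. The 7 secondary granule genes summed to 34966 and 62540 CPM in SP Gr-1hi libraries 5 and 6, and to 80100 and 88552 CPM in BM Gr-1hi, and 5 of 7 fell, while 3 of 8 mature neutrophil genes fell and 1 rose. Between SP and BM Gr-1lo libraries, 9 of 10 B cell markers rose (66.7 and 84.5 against 8.17 and 10.2 CPM). All 7 erythroid markers tested rose as well (167 and 233 against 7.76 and 8.35 CPM), as did 7 of 10 macrophage markers (312 and 347 against 272 and 226 CPM). Of the T and NK cell markers 8 of 11 rose (51.7 and 54.7 against 39.0 and 36.3 CPM). That sum includes Nkg7, which was lower in SP, at 28.3 and 20.2 against 37.4 and 34.3 CPM. Every other T and NK cell marker was higher in both SP libraries, such as Lck at 5.36 and 7.10 against 0.41 and 0.38 CPM. In the same libraries 4 of 7 secondary granule genes rose (10884 and 9625 against 6227 and 5353 CPM) and 3 of 8 mature neutrophil genes rose (6504 and 5426 against 2910 and 3127 CPM), while none of the 8 monocyte genes passed (5611 and 5256 against 8234 and 6698 CPM). Single defining markers were at 0 in at least 1 library for B cells (Cr2), NK cells (Ncr1), dendritic cells (Cd209a, Xcr1 and Zbtb46) and erythroid cells (such as Epor and Klf1), and for no gene of the macrophage, granule and neutrophil lists. The part of these cells and stages in the results on the members was not tested.

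**Figure D2:**
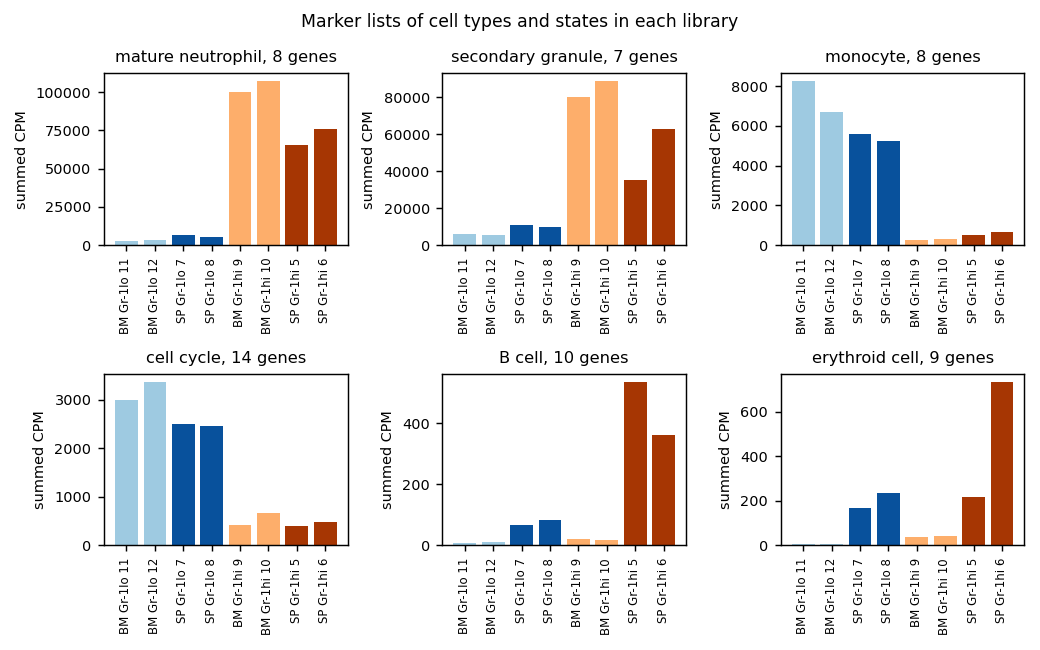
Summed CPM (y axis, linear) of 6 lists of marker genes in each of the 8 libraries (bars). Mature neutrophil and secondary granule sums are higher in every Gr-1hi than in every Gr-1lo library, monocyte and cell cycle sums are lower, secondary granule sums still reach 5353 to 10884 CPM in Gr-1lo libraries, and B cell and erythroid genes are higher in SP than in BM libraries, with 537 CPM for B cell genes in library 5 and 735 CPM for erythroid genes in library 6.

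Between Gr-1hi and Gr-1lo cells of the same organ more members passed than between organs, and so did more of all rows tested. In BM, 28 rows were higher and 7 lower in Gr-1hi, where 34.5% of all rows were higher and 41.2% lower, and the median log2 FC was 1.12 against -0.17 for all rows. In SP, 28 rows were higher and 6 lower, where 33.6% of all rows were higher and 37.8% lower, and the median was 0.79 against -0.09. By the stricter rule of an adjusted p below 0.01 with an FC above 8, BM had 6 rows higher and 3 lower, beside 6.56% and 10.1% of all rows. Under the same rule SP had 2 rows higher and 1 lower, beside 4.44% and 2.93% of all rows. Without libraries 5 and 7 the counts in SP were 23 higher and 5 lower. Cell cycle genes ran the other way, with all 14 lower in Gr-1hi cells of both organs and sums of 393 to 664 CPM in Gr-1hi libraries and 2470 to 3376 CPM in Gr-1lo libraries. RLE scaling moved the median of all rows by 0.15 in BM and by 0.13 in SP, and under it 28 rows were higher in each organ as well. The exact test on quantile-normalised TPM did not call some of the rows that were higher, among them Gapdh and Eno1 in both organs. The comparisons share libraries, so the values of a member in them are given side by side and not correlated.

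**Figure D3:**
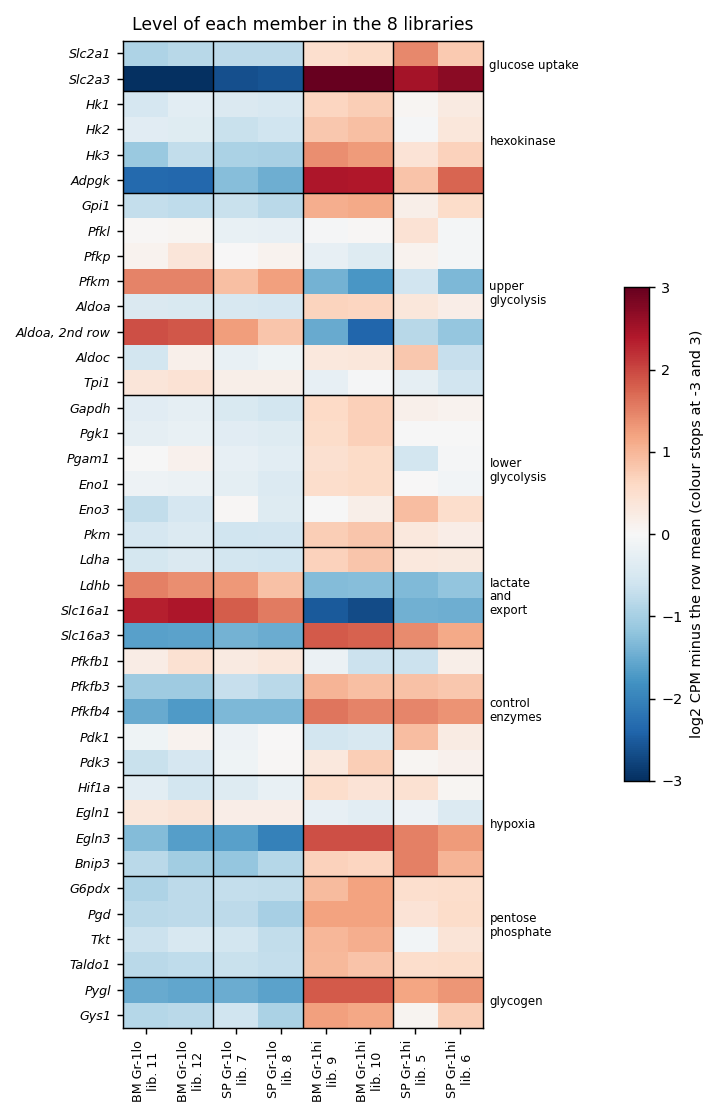
Level of each of the 39 rows (y axis, grouped by role) in the 8 libraries (x axis), as log2 CPM minus the mean of the row, with colours that stop at -3 and 3. Red prevails in the 4 Gr-1hi columns, and the rows of Pfkm, Ldhb, Slc16a1 and the second Aldoa row are blue there.

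The glucose transporter genes divided by subset. Slc2a3, which encodes a high-affinity glucose transporter, was at 2128 and 2175 CPM in BM Gr-1hi, 1107 and 1296 in SP Gr-1hi, 16.2 and 20.5 in BM Gr-1lo, and 31.8 and 32.6 in SP Gr-1lo. The 4 Gr-1hi libraries lay far above the 4 Gr-1lo libraries, and SP and BM did not overlap in either subset. Slc2a3 was 117-fold higher in Gr-1hi cells in BM (log2 FC 6.87, SE 0.16, adjusted p = 4.67e-08) and 37.3-fold higher in SP (log2 FC 5.22, SE 0.15, adjusted p = 1.71e-07), the widest increases among the 39 rows in both organs. It fell 1.79-fold in SP Gr-1hi cells (log2 FC -0.84, SE 0.13, adjusted p = 0.00203) and rose 1.76-fold in SP Gr-1lo cells (log2 FC 0.81, SE 0.13, adjusted p = 0.00834). The opposed directions passed as an interaction (log2 difference -1.65, SE 0.18, adjusted p = 0.00245). The rise in SP Gr-1lo cells lost its call without library 8 (edgeR adjusted p = 0.0604) and without library 11 (edgeR adjusted p = 0.0542), at log2 FC of 0.80 and 0.65, and in the exact test on quantile-normalised TPM (log2 FC 0.80, adjusted p = 1). The summed mature neutrophil and secondary granule genes were also higher in SP than in BM Gr-1lo libraries, and their part in this rise was not tested.

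Slc2a1, the transporter gene of most tissues, moved otherwise. It stood at 113 and 119 CPM in BM Gr-1hi, 216 and 137 in SP Gr-1hi, 41.7 and 44.2 in BM Gr-1lo, and 46.03 and 45.9 in SP Gr-1lo. Library 5 was the highest and both SP Gr-1hi libraries were above both BM Gr-1hi libraries, while all 4 Gr-1lo libraries lay between 41.7 and 46.0 CPM. It was higher in Gr-1hi cells in BM (log2 FC 1.43, SE 0.18, adjusted p = 0.000116) and in SP (log2 FC 1.94, SE 0.18, adjusted p = 2.5e-05). It rose in SP against BM Gr-1hi cells (log2 FC 0.61, SE 0.18, adjusted p = 0.0313), but the log2 FC was 0.17 without library 5 (edgeR adjusted p = 0.208) and 0.82 without library 6, and the call was also lost without library 7, 8, 9 or 10 and under RLE scaling. Of the reads per kilobase of both transporter genes, the share of Slc2a1 was 28.7 and 18% in SP Gr-1hi, 9.88 and 10.1% in BM Gr-1hi, 74.9 and 74.4% in SP Gr-1lo, and 84.2 and 81.7% in BM Gr-1lo. Between these genes Slc2a1 thus led in the Gr-1lo libraries and Slc2a3 in the Gr-1hi libraries, with the SP Gr-1hi libraries between BM Gr-1hi and the Gr-1lo libraries. Slc2a6, which is not a member and not in these shares, was above Slc2a1 in every library. It was at 49.2 to 62.7 CPM in Gr-1lo and 181 to 268 CPM in Gr-1hi libraries.

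**Figure D4:**
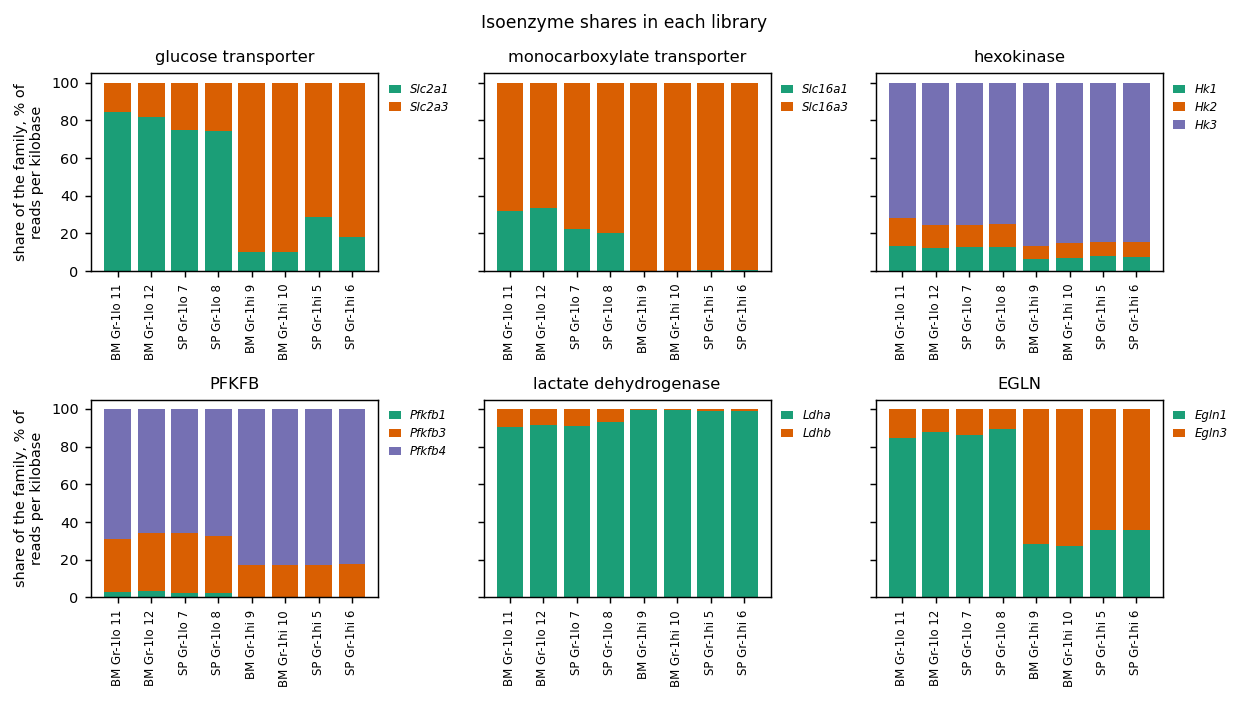
Share of each gene in the reads per kilobase of exon of the members of its family (y axis, %) in each library (bars), for 6 families. Genes of a family outside the list of members are left out. Slc2a1 gives 74.4 to 84.2% of the reads of Slc2a1 and Slc2a3 in Gr-1lo libraries and 9.88 to 28.7% in Gr-1hi libraries. Egln3 gives 10.8 to 15.2% of the reads of Egln1 and Egln3 in Gr-1lo libraries and 64.0 to 72.7% in Gr-1hi libraries.

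The kinases that trap glucose in the cell fell together in SP Gr-1hi cells. Hk3, the hexokinase of myeloid cells, was at 1290.1 and 1192 CPM in BM Gr-1hi, 657 and 797 in SP Gr-1hi, 227 and 296 in BM Gr-1lo, and 253 and 248 in SP Gr-1lo. Hk1, the hexokinase of most tissues, was at 215 and 229.5 CPM in BM Gr-1hi, 143 and 165 in SP Gr-1hi, 95.8 and 109.7 in BM Gr-1lo, and 101 and 98.5 in SP Gr-1lo. Hk2, an inducible form that binds mitochondria, was at 173 and 184 CPM in BM Gr-1hi, 96.3 and 125 in SP Gr-1hi, 77.8 and 76.4 in BM Gr-1lo, and 62.6 and 65.5 in SP Gr-1lo. For each of the 3 genes both SP Gr-1hi libraries lay below both BM Gr-1hi libraries and above all 4 Gr-1lo libraries. In SP Gr-1hi cells Hk3 fell 1.71-fold (log2 FC -0.77, SE 0.14, adjusted p = 0.00492), Hk2 fell 1.61-fold (log2 FC -0.69, SE 0.12, adjusted p = 0.00401) and Hk1 fell 1.44-fold (log2 FC -0.53, SE 0.10, adjusted p = 0.0066). In Gr-1lo cells their log2 FC between the organs were -0.06, -0.27 and -0.05, and none passed. The fall of Hk1 lost its call without libraries 5 and 7 (edgeR adjusted p = 0.0626) and in the exact test on quantile-normalised TPM (adjusted p = 0.352), and that of Hk2 in the exact test (adjusted p = 0.0677). Only Hk3 of the 3 passed the interaction, and it lost that call without library 5, 7, 8, 9 or 11. Of the hexokinase reads per kilobase, the share of Hk3 was 84.5 and 84.3% in SP Gr-1hi, 86.6 and 84.9% in BM Gr-1hi, 75.5 and 75% in SP Gr-1lo, and 71.7 and 75.8% in BM Gr-1lo, so it led in every library.

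Adpgk, a glucokinase that spends ADP instead of ATP, had the widest fall in SP Gr-1hi cells among the 22 rows that fell. It was at 3585 and 3533 CPM in BM Gr-1hi, 1195 and 2243 in SP Gr-1hi, 133 and 129 in BM Gr-1lo, and 276 and 239 in SP Gr-1lo. The SP Gr-1hi libraries were far apart, with library 5 below library 6 and both below BM Gr-1hi, and in Gr-1lo cells both SP libraries stood above both BM libraries. Adpgk was 27.2-fold higher in Gr-1hi cells in BM (log2 FC 4.77, SE 0.29, adjusted p = 1.61e-06) and 6.68-fold higher in SP (log2 FC 2.74, SE 0.26, adjusted p = 3.15e-05). It fell 2.07-fold in SP Gr-1hi cells (log2 FC -1.05, SE 0.25, adjusted p = 0.0143), with log2 FC of -0.75 without library 5 and -1.65 without library 6, and it did not pass when no filter on low counts was used (edgeR adjusted p = 0.121). In Gr-1lo cells the difference was 1.97-fold upward and did not pass (log2 FC 0.98, SE 0.25, adjusted p = 0.0678). The interaction passed (log2 difference -2.03, SE 0.35, adjusted p = 0.0101). Libraries 5 and 6 differed the same way in the summed secondary granule genes, at 34966 and 62540 CPM.

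Upper glycolysis did not move as a block. Gpi1, which turns glucose 6-phosphate into its fructose isomer, was at 2252 and 2293 CPM in BM Gr-1hi, 1185 and 1543 in SP Gr-1hi, 641 and 621 in BM Gr-1lo, and 661 and 596 in SP Gr-1lo. It was higher in Gr-1hi cells in BM (log2 FC 1.85, SE 0.13, adjusted p = 2.67e-06) and in SP (log2 FC 1.12, SE 0.13, adjusted p = 7.09e-05), and fell 1.67-fold in SP Gr-1hi cells (log2 FC -0.74, SE 0.13, adjusted p = 0.00395). None of the phosphofructokinase genes, whose enzymes commit sugar to glycolysis, passed between the organs. Pfkl, the liver form, was at 53.2 and 55.4 CPM in BM Gr-1hi, 73.7 and 52.1 in SP Gr-1hi, 55.4 and 56.9 in BM Gr-1lo, and 46.98 and 45.8 in SP Gr-1lo. Pfkp, the platelet form, was at 86.6 and 79.4 CPM in BM Gr-1hi, 111 and 98.3 in SP Gr-1hi, 110.2 and 134 in BM Gr-1lo, and 104 and 112 in SP Gr-1lo. In SP against BM Gr-1hi cells their log2 FC were 0.21 and 0.33, and Pfkp was lower in Gr-1hi than in Gr-1lo cells in BM (log2 FC -0.56, SE 0.12, adjusted p = 0.00225). Pfkm, the muscle form, was at 0.93 and 0.74 CPM in BM Gr-1hi, 1.69 and 0.99 in SP Gr-1hi, 6.99 and 7.03 in BM Gr-1lo, and 4.66 and 5.89 in SP Gr-1lo. It was 8.30-fold lower in Gr-1hi cells in BM (log2 FC -3.05, SE 0.29, adjusted p = 1.61e-05) and 3.94-fold lower in SP (log2 FC -1.98, SE 0.27, adjusted p = 0.000182), and 10.2% of its exon bases are shared with the predicted gene Gm26513 on the same strand. In the exact test on quantile-normalised TPM, Pfkm lost its calls in BM (adjusted p = 0.115) and SP (adjusted p = 0.297). Pfkp lost its call in BM there as well (adjusted p = 0.306). Of the phosphofructokinase reads per kilobase, the share of Pfkm was 2.55 and 1.92% in SP Gr-1hi, 1.9 and 1.54% in BM Gr-1hi, 8.62 and 10.4% in SP Gr-1lo, and 11.2 and 10.2% in BM Gr-1lo.

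Aldoa, the main aldolase gene of blood cells, was at 1123 and 1104 CPM in BM Gr-1hi, 893 and 810.4 in SP Gr-1hi, 520.1 and 515 in BM Gr-1lo, and 501 and 499 in SP Gr-1lo. It was higher in Gr-1hi cells in both organs and fell 1.31-fold in SP Gr-1hi cells (log2 FC -0.39, SE 0.08, adjusted p = 0.00957), a call lost with only the libraries compared (edgeR adjusted p = 0.0673). The second Aldoa row, ENSMUSG00000114515 at chr7:126800790-126809108 on GRCm38, lies just beyond the main Aldoa gene at chr7:126795234-126800751 and had 1 to 41 counts per library. It was at 0.07 and 0.04 CPM in BM Gr-1hi, 0.12 and 0.10 in SP Gr-1hi, 0.82 and 0.77 in BM Gr-1lo, and 0.51 and 0.38 in SP Gr-1lo. Its direction between the subsets was opposite to that of the main row (BM log2 FC -3.70, SE 0.54, adjusted p = 0.000246), at levels below 1 CPM. Aldoc, the brain form, was at 3.81 and 3.84 CPM in BM Gr-1hi, 5.33 and 1.88 in SP Gr-1hi, 2.09 and 3.36 in BM Gr-1lo, and 2.60 and 2.78 in SP Gr-1lo, with no comparison passed and a wide gap between libraries 5 and 6. Tpi1, which interconverts the triose phosphates, ran the other way. It was at 114 and 133 CPM in BM Gr-1hi, 113 and 90.6 in SP Gr-1hi, 174 and 184 in BM Gr-1lo, and 154 and 153 in SP Gr-1lo, lower in Gr-1hi cells in BM (log2 FC -0.53, SE 0.12, adjusted p = 0.0037) and in SP (log2 FC -0.59, SE 0.12, adjusted p = 0.00241), without passing between the organs. Its call in BM was lost without library 9.

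The genes of lower glycolysis, which carry the triose phosphates to pyruvate, included the most abundant members. In TPM, a level per exon length, Gapdh ranked highest of the 39 rows in each of the 4 groups, at 1061 to 1350 TPM, and Pkm came next, at 760.0 to 1117 TPM. Gapdh, the dehydrogenase often taken as a reference gene, was at 3201 and 3470.2 CPM in BM Gr-1hi, 2337 and 2268 in SP Gr-1hi, 1673 and 1744 in BM Gr-1lo, and 1529.6 and 1441 in SP Gr-1lo. Pkm, pyruvate kinase, was at 3225 and 3453 CPM in BM Gr-1hi, 2419 and 2207 in SP Gr-1hi, 1352 and 1459.6 in BM Gr-1lo, and 1283 and 1293 in SP Gr-1lo. In CPM both genes had the same order of groups, with BM Gr-1hi above SP Gr-1hi and SP Gr-1hi above Gr-1lo, and no libraries of these groups overlapped. In TPM the order did not hold. Gapdh was at 1182 and 1059 TPM in SP Gr-1hi and at 1258 and 1288 TPM in BM Gr-1lo. Pkm was at 851 TPM in library 6 and 890 TPM in library 12. The exact test on quantile-normalised TPM did not call Gapdh between the subsets in BM (log2 FC 0.17, adjusted p = 0.0883). Nor did it in SP (log2 FC 0.04, adjusted p = 0.789). In SP Gr-1hi cells Gapdh fell 1.45-fold (log2 FC -0.53, SE 0.09, adjusted p = 0.00371) and Pkm fell 1.44-fold (log2 FC -0.53, SE 0.10, adjusted p = 0.00457). Pgk1, a kinase that yields ATP, fell 1.56-fold (log2 FC -0.65, SE 0.09, adjusted p = 0.00126), and Pgam1, the mutase after it, fell 1.73-fold (log2 FC -0.79, SE 0.15, adjusted p = 0.00614). None of these 4 genes passed in Gr-1lo cells, where the log2 FC were -0.20 for Gapdh, -0.13 for Pkm, -0.11 for Pgk1 and -0.34 for Pgam1. Between the subsets of SP, Pgam1 did not pass (log2 FC 0.02, SE 0.15, adjusted p = 0.891), and without library 6 it was lower in Gr-1hi cells (log2 FC -0.28, edgeR adjusted p = 0.0353). Near-identical copies take part of the reads: Gapdh-ps15 held 2.26 to 2.96% of the reads of itself and Gapdh, Eno1b 14.3 to 16.8% of itself and Eno1, and Pgam1-ps2 24.3 to 26.3% of itself and Pgam1, so the split between a gene and its copy is uncertain. Pkm shares 15.3% of its exon bases with Gm49759 on the same strand.

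The enolase genes parted between the organs. Eno1, the form of most tissues, was at 1363 and 1391 CPM in BM Gr-1hi, 951 and 887 in SP Gr-1hi, 841 and 829.9 in BM Gr-1lo, and 766 and 709 in SP Gr-1lo. Eno3, the muscle form, was at 6.77 and 7.76 CPM in BM Gr-1hi, 13.02 and 9.86 in SP Gr-1hi, 4.12 and 4.82 in BM Gr-1lo, and 7.09 and 5.27 in SP Gr-1lo. Eno1 was lower in both SP Gr-1hi libraries than in both BM Gr-1hi libraries, and Eno3 was higher in both. Eno1 fell 1.5-fold (log2 FC -0.58, SE 0.09, adjusted p = 0.00195) and Eno3 rose 1.58-fold (log2 FC 0.66, SE 0.21, adjusted p = 0.041). The rise of Eno3 lost its call without library 5, 9, 10, 11 or 12, under RLE scaling and with DESeq2, at log2 FC of 0.36 to 0.77 over the libraries left out. Of the enolase reads per kilobase, the share of Eno3 was 4.06 and 3.32% in SP Gr-1hi, 1.51 and 1.7% in BM Gr-1hi, 2.78 and 2.25% in SP Gr-1lo, and 1.49 and 1.76% in BM Gr-1lo.

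Lactate is made from pyruvate and leaves the cell through monocarboxylate transporters, and here the isoforms of both steps divided by subset. Ldha, the form that favours lactate, was at 590.1 and 653 CPM in BM Gr-1hi, 456 and 447 in SP Gr-1hi, 256 and 274 in BM Gr-1lo, and 249 and 242 in SP Gr-1lo. Ldhb, the form that favours pyruvate, was at 1.87 and 1.90 CPM in BM Gr-1hi, 1.84 and 2.04 in SP Gr-1hi, 13.1 and 12.2 in BM Gr-1lo, and 11.4 and 8.49 in SP Gr-1lo. Ldha was the higher gene in every library, and Ldhb was above 8 CPM in all Gr-1lo and near 2 CPM in all Gr-1hi libraries. Ldha was higher in Gr-1hi cells in BM (log2 FC 1.23, SE 0.09, adjusted p = 2.62e-06) and SP (log2 FC 0.88, SE 0.09, adjusted p = 2.83e-05), while Ldhb was 6.71-fold lower in BM (log2 FC -2.75, SE 0.20, adjusted p = 2.84e-06) and 5.12-fold lower in SP (log2 FC -2.36, SE 0.19, adjusted p = 9.25e-06). Between the organs Ldha fell 1.38-fold in SP Gr-1hi cells (log2 FC -0.46, SE 0.09, adjusted p = 0.00524), and Ldhb did not pass in either subset.

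Slc16a3, the lactate exporter gene of glycolytic cells, was at 644 and 607 CPM in BM Gr-1hi, 481 and 393 in SP Gr-1hi, 58.1 and 58.6 in BM Gr-1lo, and 66.8 and 63.6 in SP Gr-1lo. Slc16a1, a transporter gene that serves uptake and export, was at 0.79 and 0.70 CPM in BM Gr-1hi, 1.66 and 1.63 in SP Gr-1hi, 22.8 and 24.4 in BM Gr-1lo, and 15.8 and 13.2 in SP Gr-1lo. Slc16a1 ran opposite to Slc16a3 between the subsets of both organs, with all Gr-1lo libraries at least 13.2 CPM and all Gr-1hi libraries at most 1.66 CPM. Slc16a1 was 31.6-fold lower in Gr-1hi cells in BM (log2 FC -4.98, SE 0.18, adjusted p = 1.42e-07) and 8.82-fold lower in SP (log2 FC -3.14, SE 0.16, adjusted p = 9.9e-07). It rose 2.20-fold in SP Gr-1hi cells (log2 FC 1.14, SE 0.21, adjusted p = 0.00507) and fell 1.63-fold in SP Gr-1lo cells (log2 FC -0.71, SE 0.13, adjusted p = 0.0152), and the interaction passed (log2 difference 1.84, SE 0.25, adjusted p = 0.00399). The rise passed without each of the 8 libraries in turn but not in the exact test on quantile-normalised TPM (log2 FC 0.42, adjusted p = 1). The fall in Gr-1lo cells lost its call without library 8, 11 or 12 and in the exact test (log2 FC -0.80, adjusted p = 1). Between the organs the summed monocyte genes moved as Slc16a1 did, higher in both SP Gr-1hi libraries and lower in both SP Gr-1lo libraries. The sums hid genes that moved differently. Csf1r was at 375 and 264 CPM in SP Gr-1hi against 175 and 133 in BM Gr-1hi. It was also higher in SP Gr-1lo, at 663 and 754 CPM against 471 and 436 in BM Gr-1lo. Fn1 was lower in SP Gr-1lo, at 1753 and 1220 CPM against 3656 and 2474. Among the Gr-1hi libraries Fn1 was highest in BM library 10. Klf4 moved as Slc16a1 did in both subsets. The part of monocyte genes in the changes of Slc16a1 was not tested. Slc16a3 was 10.7-fold higher in Gr-1hi cells in BM (log2 FC 3.42, SE 0.12, adjusted p = 1.17e-07) and 6.70-fold higher in SP (log2 FC 2.74, SE 0.11, adjusted p = 4.95e-07), and fell 1.43-fold in SP Gr-1hi cells (log2 FC -0.52, SE 0.11, adjusted p = 0.00738). The share of Slc16a1 in the reads per kilobase of both genes was 0.413 and 0.495% in SP Gr-1hi, 0.146 and 0.139% in BM Gr-1hi, 22.1 and 20% in SP Gr-1lo, and 32.1 and 33.4% in BM Gr-1lo.

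**Figure D5:**
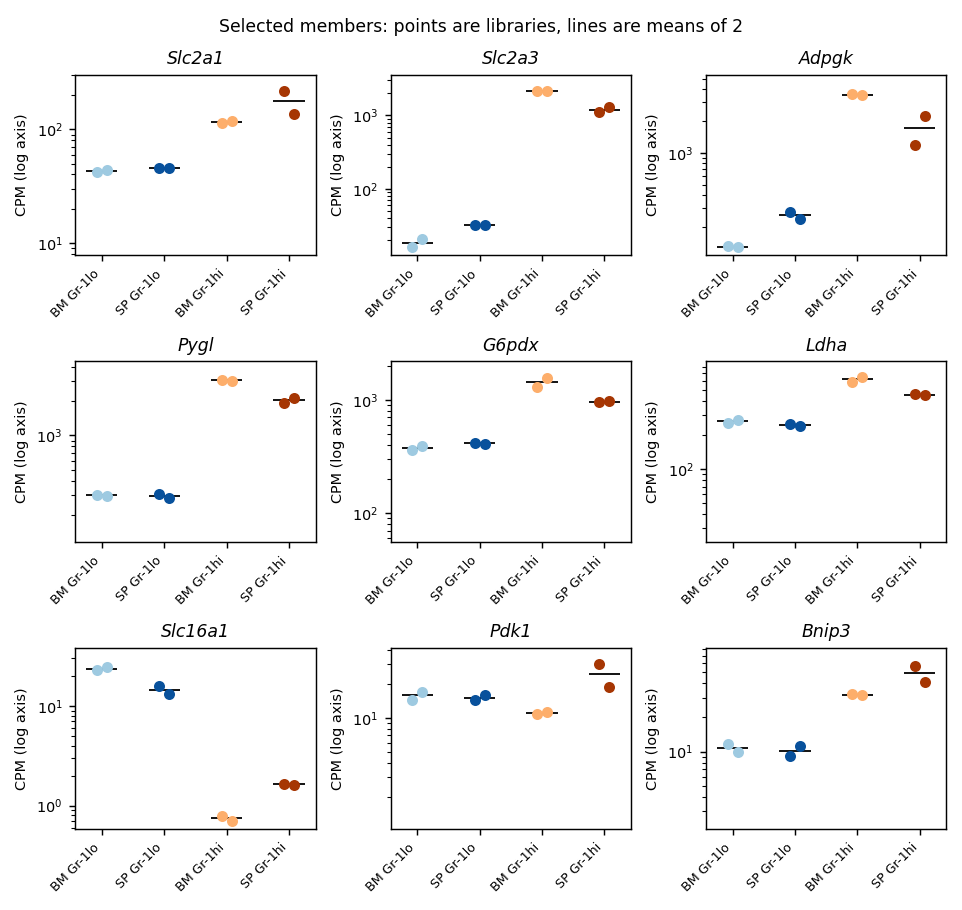
CPM (y axis, log scale) of 9 members in the 4 groups (x axis), with a point for each library and a line at the mean of 2. Slc2a3, Adpgk, Pygl, G6pdx and Ldha are highest in BM Gr-1hi cells, Slc2a1, Pdk1 and Bnip3 in SP Gr-1hi cells, where library 5 is the upper point, and Slc16a1 in Gr-1lo cells.

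Among the control enzymes the Pfkfb genes did not pass between the organs. They make and break down the sugar bisphosphate that activates phosphofructokinase. Pfkfb4 was at 623 and 576 CPM in BM Gr-1hi, 564 and 518 in SP Gr-1hi, 71.8 and 63.6 in BM Gr-1lo, and 81.1 and 80.3 in SP Gr-1lo. Pfkfb3, a form with strong synthetic activity, was at 197 and 181 CPM in BM Gr-1hi, 178 and 171 in SP Gr-1hi, 46.3 and 46.3 in BM Gr-1lo, and 60.3 and 55.5 in SP Gr-1lo. For both genes the SP Gr-1hi libraries lay just below the BM Gr-1hi libraries, and all 4 lay above the Gr-1lo libraries. Pfkfb4 was 8.85-fold higher in Gr-1hi cells in BM (log2 FC 3.15, SE 0.10, adjusted p = 1e-07) and 6.71-fold higher in SP (log2 FC 2.75, SE 0.10, adjusted p = 3.4e-07), and Pfkfb3 was 4.09-fold and 3.01-fold higher. Between SP and BM Gr-1hi cells the log2 FC was -0.15 for Pfkfb4 (adjusted p = 0.257) and -0.12 for Pfkfb3 (adjusted p = 0.313). Pfkfb1, the liver form, was at 1.72 and 1.24 CPM in BM Gr-1hi, 1.24 and 2.20 in SP Gr-1hi, 2.27 and 2.68 in BM Gr-1lo, and 2.36 and 2.47 in SP Gr-1lo, and passed in no comparison.

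The pyruvate dehydrogenase kinases, which hold pyruvate back from the mitochondria, went apart in SP Gr-1hi cells. Pdk1 was at 10.8 and 11.2 CPM in BM Gr-1hi, 30.02 and 18.8 in SP Gr-1hi, 14.5 and 17.04 in BM Gr-1lo, and 14.2 and 15.8 in SP Gr-1lo. Pdk3 was at 48.1 and 63.5 CPM in BM Gr-1hi, 40.2 and 41.9 in SP Gr-1hi, 24.2 and 27.03 in BM Gr-1lo, and 35.2 and 39.3 in SP Gr-1lo. Pdk1 was highest in library 5, then in library 6, and both BM Gr-1hi libraries were below all Gr-1lo libraries, whereas Pdk3 was highest in BM Gr-1hi cells. Pdk1 rose 2.21-fold in SP Gr-1hi cells (log2 FC 1.14, SE 0.21, adjusted p = 0.0051), with log2 FC of 0.69 without library 5 and 1.37 without library 6, and passed without each of the 8 libraries but not in the exact test on quantile-normalised TPM (log2 FC 0.81, adjusted p = 0.820). It was the second of only 2 members, with Slc16a1, that rose with an FC of at least 2, a rule that 14% of all rows met as higher. Pdk3 fell 1.36-fold (log2 FC -0.44, SE 0.14, adjusted p = 0.0388), but its call held without only 2 of the 8 libraries in turn, library 6 and library 9. The interaction passed upward for Pdk1 (log2 difference 1.21, adjusted p = 0.0279) and downward for Pdk3 (log2 difference -0.98, adjusted p = 0.0146). Pdk1 lost this call without library 7, 8, 9, 10 or 12, and Pdk3 without library 8 or 11.

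Of the genes of the oxygen response, Hif1a, the regulated subunit of the factor, was at 218 and 200.2 CPM in BM Gr-1hi, 207 and 156 in SP Gr-1hi, 122 and 102 in BM Gr-1lo, and 115 and 129 in SP Gr-1lo. It was higher in Gr-1hi cells in BM (log2 FC 0.90, SE 0.15, adjusted p = 0.000494) and SP (log2 FC 0.57, SE 0.15, adjusted p = 0.00737) and did not pass between the organs. The call in SP was lost in the exact test on quantile-normalised TPM (log2 FC 0.34, adjusted p = 0.182). It was also lost without library 5 (log2 FC 0.33), without library 7 (log2 FC 0.46) and without both (log2 FC 0.25). Mean levels of Hif1a were 59.5 TPM in BM Gr-1hi, 62.2 in SP Gr-1hi, 58.4 in BM Gr-1lo and 61.1 in SP Gr-1lo. Hif1a shares 2.51% of its exon bases with Gm49321 on the same strand. Egln3, a prolyl hydroxylase gene that is itself a known target of the factor, was at 45.6 and 45.6 CPM in BM Gr-1hi, 34.1 and 28.9 in SP Gr-1hi, 4.86 and 3.80 in BM Gr-1lo, and 3.88 and 2.93 in SP Gr-1lo. Egln1, the main hydroxylase that marks the factor, was at 24.4 and 23.2 CPM in BM Gr-1hi, 25.9 and 21.6 in SP Gr-1hi, 36.7 and 37.6 in BM Gr-1lo, and 32.97 and 32.8 in SP Gr-1lo. The hydroxylase genes ran in opposite directions, Egln3 high and Egln1 low in Gr-1hi libraries, without overlap between the subsets. Egln3 was 10.5-fold higher in Gr-1hi cells in BM (log2 FC 3.40, SE 0.18, adjusted p = 5.28e-07) and 9.34-fold higher in SP (log2 FC 3.22, SE 0.18, adjusted p = 1.56e-06), the second member besides Slc2a3 past an FC of 8 in SP. It fell 1.45-fold in SP Gr-1hi cells (log2 FC -0.53, SE 0.16, adjusted p = 0.0328), a call lost without library 6, 9 or 10. Bnip3, a mitochondrial receptor for autophagy and another known target, was at 32.3 and 31.3 CPM in BM Gr-1hi, 57.2 and 40.7 in SP Gr-1hi, 11.6 and 9.82 in BM Gr-1lo, and 9.05 and 11.1 in SP Gr-1lo. Library 5 again stood above library 6, and both above BM Gr-1hi. Bnip3 rose 1.54-fold (log2 FC 0.62, SE 0.17, adjusted p = 0.0252), with a log2 FC of 0.28 without library 5 (edgeR adjusted p = 0.236), and it lost its call without library 9 or 10 as well. Slc2a1, Pdk1 and Bnip3 thus shared the order library 5, library 6, BM Gr-1hi. The sums of B cell, T and NK cell, splenic macrophage, plasma cell and dendritic cell markers had the same order in these libraries. The sums of erythroid markers (218 and 735 CPM) and monocyte genes (532 and 644 CPM) were higher in library 6 than in library 5. Within the monocyte sum, Nr4a1 was at 101 CPM in library 5 and 334 CPM in library 6. Csf1r (375 and 264 CPM), Ccr2 (19.2 and 15.2), Ly86 (16.8 and 13.7) and Cx3cr1 (10.6 and 6.06) were higher in library 5. F13a1, Fn1 and Klf4, at 8.01 CPM or less, were higher in library 6. The part of any of these cells in the order was not tested.

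All 4 pentose phosphate genes fell in SP Gr-1hi cells and none passed in Gr-1lo cells. G6pdx, the enzyme that opens the pathway, was at 1302 and 1559 CPM in BM Gr-1hi, 958 and 971 in SP Gr-1hi, 357 and 392 in BM Gr-1lo, and 415 and 408 in SP Gr-1lo. Pgd, which yields the second NADPH, was at 1794 and 1796 CPM in BM Gr-1hi, 1022 and 1131 in SP Gr-1hi, 444 and 450.3 in BM Gr-1lo, and 449 and 385 in SP Gr-1lo. Tkt, the transketolase, was at 1818 and 1941 CPM in BM Gr-1hi, 852 and 1197 in SP Gr-1hi, 581 and 656 in BM Gr-1lo, and 619.8 and 547 in SP Gr-1lo. For all 3 genes the SP Gr-1hi libraries lay between BM Gr-1hi and the Gr-1lo libraries with no overlap. Taldo1, the transaldolase, was at 1256 and 1160.3 CPM in BM Gr-1hi, 929 and 937 in SP Gr-1hi, 368 and 377 in BM Gr-1lo, and 406 and 393 in SP Gr-1lo, with the same order. All 4 rose from Gr-1lo to Gr-1hi cells, by log2 FC of 1.6 to 2.01 in BM and 0.81 to 1.37 in SP. In SP Gr-1hi cells G6pdx fell 1.48-fold (log2 FC -0.57, SE 0.11, adjusted p = 0.00504), Pgd 1.67-fold (log2 FC -0.74, SE 0.10, adjusted p = 0.0014), Tkt 1.84-fold (log2 FC -0.88, SE 0.16, adjusted p = 0.00452) and Taldo1 1.29-fold (log2 FC -0.37, SE 0.08, adjusted p = 0.0103). The fall of Taldo1 lost its call without libraries 5 and 7 (edgeR adjusted p = 0.0781), with only the libraries compared (edgeR adjusted p = 0.0733) and in the exact test on quantile-normalised TPM (adjusted p = 0.133). In Gr-1lo cells the log2 FC between the organs lay between -0.10 and 0.14. The interaction passed for all 4 genes, and for none of them without library 7, without library 11 or without libraries 5 and 7 together. In TPM, Taldo1 and G6pdx came right after Gapdh and Pkm in both Gr-1hi groups, at 864 and 629 TPM in SP and 932 and 776 TPM in BM. G6pdx, Pgk1, Pdk3 and Pfkfb1 are on the X chromosome, and in library 5, with Xist reads, and library 6, without them, they were at 958 and 971 CPM, 396 and 397 CPM, 40.2 and 41.9 CPM, and 1.24 and 2.20 CPM.

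Glycogen genes followed the same order, and Pygl had a wider gap between the subsets. Pygl, the glycogen phosphorylase of liver and neutrophils, was at 3075 and 3055 CPM in BM Gr-1hi, 1944 and 2142 in SP Gr-1hi, 301 and 293 in BM Gr-1lo, and 304 and 280.2 in SP Gr-1lo. Gys1, the glycogen synthase of most tissues, was at 155 and 148 CPM in BM Gr-1hi, 70.4 and 111 in SP Gr-1hi, 36.7 and 37.8 in BM Gr-1lo, and 43.6 and 34.02 in SP Gr-1lo. The Gr-1hi libraries were all above the Gr-1lo libraries for both genes, and BM above SP. Pygl was 10.3-fold higher in Gr-1hi cells in BM (log2 FC 3.37, SE 0.10, adjusted p = 8.84e-08) and 6.99-fold higher in SP (log2 FC 2.81, SE 0.10, adjusted p = 3.2e-07), and its mean level was 744 TPM in BM and 594 TPM in SP Gr-1hi cells against 133 and 125 TPM in Gr-1lo cells. In SP Gr-1hi cells Pygl fell 1.5-fold (log2 FC -0.58, SE 0.09, adjusted p = 0.00257) and Gys1 fell 1.67-fold (log2 FC -0.74, SE 0.20, adjusted p = 0.0232). Gys1 was the less even of the pair, at 70.4 CPM in library 5 and 111 in library 6, and its call was lost without library 9 and with only the libraries compared (edgeR adjusted p = 0.0501).

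The 107 other genes of these pathways, listed beside the members, were split more evenly. Of the 82 that were tested, 14 rose and 21 fell in SP against BM Gr-1hi cells, and 3 rose and 2 fell in Gr-1lo cells. Glycogen genes other than Pygl and Gys1 gave 6 higher and 8 lower of 23, further pentose phosphate genes 2 and 2 of 9, and further genes of uptake and glycolysis 1 and 3 of 13. By the naming rule, 4 genes with a fold of at least 2 and at least 10 CPM passed in SP Gr-1hi cells. Arrdc4, an arrestin gene that restrains glucose uptake, was at 78.7 and 44.0 CPM in SP Gr-1hi and 28.9 and 23.7 in BM Gr-1hi (log2 FC 1.22, SE 0.25, adjusted p = 0.00869). P4ha1, a collagen prolyl hydroxylase gene induced by low oxygen, was at 53.0 and 29.6 CPM against 15.5 and 16.2 (log2 FC 1.38, SE 0.29, adjusted p = 0.00987). Both were highest in library 5 of the 4 Gr-1hi libraries. Gaa, which breaks down glycogen in lysosomes, was at 11.1 and 9.15 CPM against 3.89 and 4.29 (log2 FC 1.31, SE 0.14, adjusted p = 0.000415). Gbe1, the glycogen branching enzyme, was at 31.1 and 51.6 CPM against 83.7 and 85.4 (log2 FC -1.03, SE 0.22, adjusted p = 0.00977). Gbe1 had the order of the glycogen members, with library 5 lowest among the Gr-1hi libraries.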

How the data were processed

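Per the labels and the methods of the study, the authors checked reads with FastQC, aligned them to GRCm38 with STAR and counted them per gene with featureCounts. The deposited table holds raw counts for 54188 genes and 8 libraries. Counts were analysed here with edgeR 4.0.16 in R 4.3.3: TMM scaling, filterByExpr, and a robust quasi-likelihood fit of all 8 libraries with 1 term per group and 4 residual degrees of freedom. The study itself tested quantile-normalised TPM, and that test was an alternative here.

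The 38 symbols, the other gene lists and the tests were chosen with earlier results of these data known. Values in every library were printed for isoenzyme families, for members with a fold of at least 2 between SP and BM, and for the 3 widest increases and decreases between subsets in each organ, and further members were described by their roles. Lists for plasma cells, dendritic cells, platelets, and eosinophils and basophils were also summed. In SP against BM Gr-1hi cells, plasma cell markers gave 7 higher of 7 tested, dendritic cell markers 4 higher and 1 lower of 8, platelet markers 1 higher and 1 lower of 4, eosinophil and basophil markers 2 higher and 3 lower of 12, and primary granule genes 3 lower of 6.

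Exon lengths for TPM and isoform shares came from GENCODE release M21, which has 53947 of the identifiers. Replicates differed beyond sampling noise (chi-square per degree of freedom 66.7 in SP Gr-1hi and 18.9 to 21.3 in the other groups), so none was a library deposited in duplicate. Promoter windows came from RefSeq on GRCm38.p6. In simulated counts for 17650 genes, 200 genes were changed by 2 on the log2 scale. The test recovered 190 for SP against BM Gr-1hi cells, with 17 false calls, and 194 for Gr-1lo cells, with 26. In both comparisons false calls made up a larger share of all calls than the limit set on adjusted p. The members changed less, with log2 FC of -1.05 to 1.14 in Gr-1hi cells and -0.86 to 0.98 in Gr-1lo cells. Recovery of changes of that size was not simulated, so the simulation cannot say how many such changes were missed. Alternatives were RLE and upper-quartile scaling, no filter on low counts, DESeq2 1.42.0, a fit of the compared libraries only, an exact test on quantile-normalised TPM, and each library left out.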

Additional observations from a re-analysis of the deposited data

Results flagged for a closer look

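The change from Gr-1lo to Gr-1hi cells differed between SP and BM, by a test of the difference itself, for 15 of the 39 rows, where 16.4% of all rows tested passed. The values are log2 differences, SP minus BM, from edgeR's quasi-likelihood test. Upward differences were found for Slc16a1 (1.84) and Pdk1 (1.21). Downward differences were found for Adpgk (-2.03), Slc2a3 (-1.65), Pdk3 (-0.98), Tkt (-0.79), Gpi1 (-0.73), Hk3 (-0.71), G6pdx (-0.71), Slc16a3 (-0.68), Pgd (-0.64), Pygl (-0.56), Pgk1 (-0.53), Taldo1 (-0.47) and Pfkfb3 (-0.44). Of these, 2 passed under every alternative that gave a value, Slc2a3 and Slc16a1, and the other 13 lost the call under at least 1. Groups of 2 libraries were too small to look for single outlying libraries.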

How the results depend on the processing

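No paired analysis was possible because the libraries of different groups share no replicate number and, although groups may share mice, no label says which libraries do. Where a member had passed, the sign was kept in 405 of 405 alternative values for SP against BM Gr-1hi cells, 30 of 30 for Gr-1lo cells, 523 of 524 for Gr-1hi against Gr-1lo cells in BM, 507 of 509 in SP and 195 of 195 for the interaction. The call was kept under every alternative run for 14 of 27, 0 of 2, 27 of 35, 24 of 34 and 2 of 15 members. The cause of the changes below was not tested.

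In SP against BM Gr-1lo cells the number of members called higher, 1 in the fit reported, was 3 under upper-quartile scaling, 3 without a filter on low counts, 3 with DESeq2, 4 with only the libraries compared, 0 in the exact test on quantile-normalised TPM, 2 without libraries 5 and 7, and 0 to 4 when 1 library was left out. The number called lower, 1 in the fit reported, was 2 with DESeq2, 3 with only the libraries compared, 0 in the exact test and 0 to 2 when 1 library was left out. The number past an FC of 2 was 1 under upper-quartile scaling and 1 with only the libraries compared.

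In SP against BM Gr-1hi cells the number called higher was 3 under RLE scaling, 3 with only the libraries compared, 0 in the exact test, 2 without libraries 5 and 7, and 2 to 7 when 1 library was left out. The number past an FC of 2 was 0 in the exact test, 1 without libraries 5 and 7, and 2 to 8 when 1 library was left out.

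Between the subsets, the exact test gave 3 members lower and 5 past an FC of 8 in BM, and 3 lower in SP. Among members called higher in Gr-1hi cells in the fit reported, it did not call Gapdh, Pgam1, Eno1 or Eno3 in BM. In SP it did not call Hk1, Pfkl, Gapdh, Pgk1, Eno1, Pdk1 or Hif1a. Its log2 FC were -0.065 for Pgam1 in BM and -0.065 for Pgk1 and -0.086 for Eno1 in SP. The log2 FC of Pgam1 in SP was -0.28 without library 6 and 0.24 without library 5. The exact test had values for 37 of the 39 rows and none for the interaction. The number of interaction calls was 4 without libraries 5 and 7 and 4 to 26 when 1 library was left out, and past an FC of 2 it was 3 to 9.

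Between SP and BM Gr-1hi cells the errors were widest for rows that stayed below 8 CPM, the second Aldoa row (SE 0.75), Aldoc (0.44), Pfkfb1 (0.33) and Pfkm (0.32). With 2 libraries per group, every error rests on a spread shared over the 4 groups.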
